A study of Caenorhabditis elegans with 12 samples.

Results

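The comparison described here asks whether the difference between XO and XX animals was the same in the gonad as in the whole body. It took all 12 RNA-seq libraries of the series, 3 in each of 4 groups: gonads dissected from XO young adults, gonads dissected from XX young adults, whole XO young adults and whole XX young adults. All were Caenorhabditis elegans carrying fog-1(q253)ts, a temperature-sensitive allele, kept at 25 °C. Per the labels' protocols, gonad samples pooled 200 or more gonads, and whole worm samples 600 or more animals picked by hand. The quantity described is the log2 XO over XX ratio in gonads minus the log2 XO over XX ratio in whole worms, called the interaction below. A negative interaction means that XO was lower, relative to XX, in gonads than in whole worms. Genes entered with a summed read count of 30 or more over the 6 gonad libraries and 30 or more over the 6 whole worm libraries, so that both ratios were measured. This gave 9498 genes of 20389 in the tables. Another 3789 genes reached 30 in whole worms alone, 85 in gonads alone and 7017 in neither. Of the 9498 genes, 8267 were autosomal, 1089 X-linked and 8 mitochondrial, and 134 had no match in the annotation.

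In C. elegans the count of X chromosomes sets sex, so that an XO animal has a male soma and an XX animal a hermaphrodite soma. The product of fog-1 commits germ cells to sperm, so germ cells of fog-1 mutants make oocytes in either body. A dissected gonad holds germ cells and the somatic gonad around them, and the somatic gonad is built differently in each sex. In worms, a dosage compensation complex lowers transcription from both X chromosomes of the XX soma, while germ cells do not use this complex and keep the X chromosome largely silent through much of their development. A whole animal holds its gonad too, so its ratio is a mixture of gonad and soma. In such bulk samples, fewer cells of a type and less RNA per cell cannot be told apart.

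The libraries held from 7912618 to 16140259 gene counts. The summed level of 7 germline markers was 5341 to 5723 CPM (read counts scaled to a common library size) in XO gonads and 5703 to 6597 in XX gonads, against 2868 to 3145 in XO worms and 3467 to 3526 in XX worms. Markers of other tissues were also detected in dissected gonads. The summed level of 11 intestine markers was 126 to 164 CPM in XO gonads and 36 to 65.2 in XX gonads, which was 2.61% and 0.966% of the mean level in the whole worms of the same karyotype, and fat-7 was at 0 in every group. The summed level of 11 body wall muscle markers was 150 to 217 CPM in XO gonads and 484 to 577 in XX gonads, with none at 0 in either. As a percentage of the mean level in whole worms of the same karyotype, these muscle markers stood at 1.18% in XO gonads and 6.17% in XX gonads. The same percentages were 1.27% and 11.8% for 4 pharynx muscle markers, 2.12% and 1.04% for 8 cuticle and hypodermis markers, and 18.5% and 55.3% for 12 neuronal markers. Single genes made up most of some sums. Of the neuronal sums, 156 to 176 CPM in XO gonads and 193 to 243 in XX gonads, snb-1 held means of 134 and 167 CPM. Another neuronal marker, egl-21, stood at 2.96% and 10.1% of its level in whole worms. The neuronal sum does not stand for each marker. In gonads ida-1, unc-13, rab-3 and unc-31 were higher in XO, at log2 ratios of 2.33, 1.96, 1.62 and 1.42. Lower in XO were unc-119 and snb-1, at -1.28 and -0.32, and egl-21 was not called. Of the pharynx muscle sum in XX gonads, 24.8 to 26.5 CPM, tni-4 held a mean of 22.9 CPM. For 6 markers of the gonadal sheath and spermatheca, which are part of the gonad, the percentages were 106% and 78.9%. These 6 markers were split. The log2 ratio of XO over XX in gonads was -8.61 for tbh-1, -6.05 for inx-8, -3.53 for lim-7 and -3.18 for ceh-18. It was 0.264 for inx-9 and 1.2 for fln-1, neither of them called. Of the XX gonad libraries, replicate 1 stood apart. The chi-square per degree of freedom of its counts against the other XX gonads was 125 and 172, against 5.14 to 22.4 for every other pair of replicates. Its genes over 4 kb lay at a median log2 deviation of -1.15 from the other XX gonads, and its genes under 1 kb at 0.232. Counts are therefore given with and without it where that matters.

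The interaction passed the test in 1871 of the 9498 genes (edgeR's quasi-likelihood test, Benjamini-Hochberg adjusted p below 0.05). It was lower in 1568 and higher in 303. Over all 12552 genes tested, 17.0% were called, 14.1% lower and 2.96% higher. Without XX gonad replicate 1, the counts were 1764 lower and 443 higher, and 1751 of the 1871 genes were called again in the same direction. The median interaction over the 9498 genes was -0.04, with quartiles at -0.56 and 0.30. In gonads, 1294 of the genes were higher and 2375 lower in XO than in XX, against 12.2% and 20.2% of all genes tested. In whole worms, 1744 were higher and 1388 lower in XO, against 25.8% and 13.4% of all genes tested.

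X-linked genes made up 704 of the 1871 calls, although they were 1089 of the 9498 genes. Of these X-linked genes, 652 were lower and 52 higher in the interaction, and the median was -1.87. Of 8267 autosomal genes, 905 were lower and 245 higher, with a median of 0.01. Among the autosomes, genes lower in the interaction ran from 8.65% of 1815 on chromosome I to 13.7% of 1447 on chromosome V, against 59.9% on the X chromosome. Genes higher in the interaction ran from 1.98% on chromosomes I and III to 5.46% on chromosome V, against 4.78% on the X chromosome. For X-linked genes, the median log2 ratio of XO over XX was -2.85 in gonads and -0.57 in whole worms. None of the 8 mitochondrial genes was called, by edgeR, DESeq2 or limma voom, nor at an unadjusted p below 0.05. Without XX gonad replicate 1, 721 X-linked genes were lower and 49 higher.

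**Figure D1:**
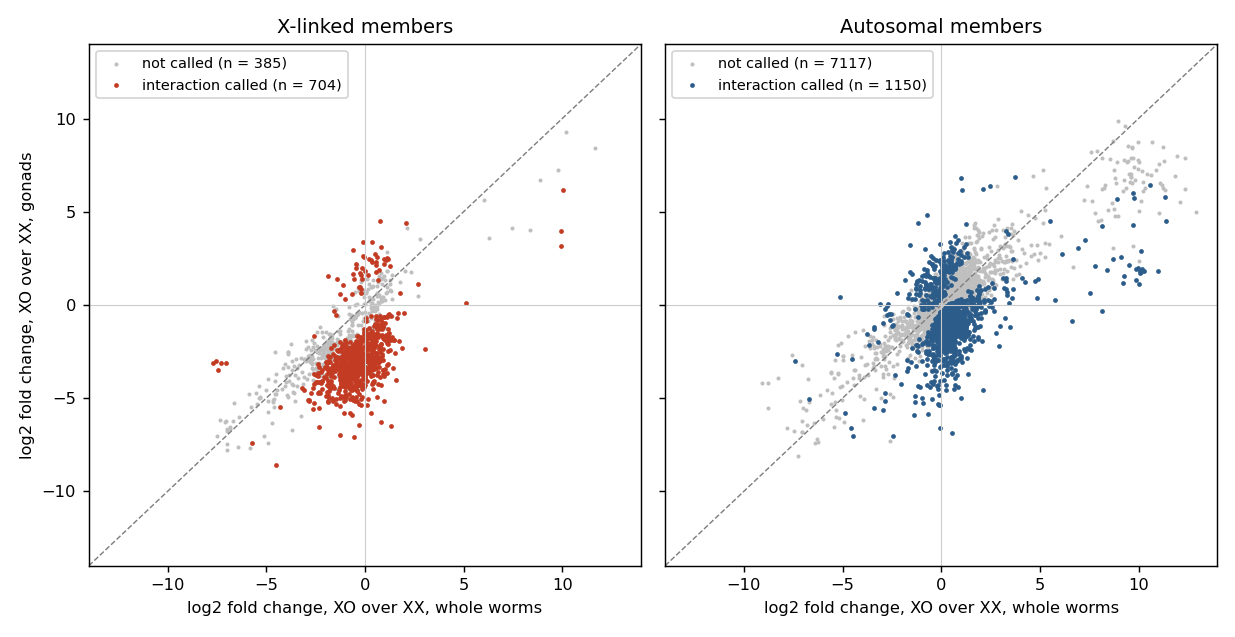
Log2 fold change of XO over XX in gonads (vertical) against the same in whole worms (horizontal), 1 point per gene, for X-linked genes at left and autosomal genes at right, with genes that passed the interaction test in colour and the dashed line marking equal ratios. Most called X-linked points lie below the dashed line, 652 of 704, and so do 905 of the 1150 called autosomal points.

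The level of the X chromosome was also taken in each library on its own, as the median log2 CPM over X-linked genes less the median over autosomal genes. XO gonads had -4.585, -4.502 and -4.558, and XX gonads -2.122, -2.225 and -2.266. It was -1.791, -1.831 and -1.796 in XO worms and -0.9548, -0.8862 and -0.9301 in XX worms. XO libraries lay below XX libraries in both tissues, with no overlap, and the gap was wider in gonads. The difference of XO minus XX was -2.34 in gonads and -0.88 in whole worms. Taken over the 9 pairs of libraries in a tissue, it ran from -2.46 to -2.24 in gonads and from -0.945 to -0.836 in whole worms. The interaction on this measure was -1.46. The square root of the summed variances of the 4 groups was 0.0948, a spread for single libraries and not for means of 3. An exact permutation test over the 400 reassignments of karyotype within tissue gave a 2-sided p of 0.145. That test reassigns libraries as if karyotype had no effect in either tissue, and it does not test the difference between 2 effects that are both present. As a share of all gene counts, the X chromosome took 0.485% ± 0.0264 in XO gonads and 2.61% ± 0.195 in XX gonads, against 6.50% ± 0.118 in XO worms and 13.1% ± 0.779 in XX worms (SD, n = 3). The share in XX worms rests partly on a few yolk protein genes. X-linked vit-2 and vit-5 had means of 35604 and 16597 CPM in XX worms, against 225 and 79.5 CPM in XO worms.

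**Figure D2:**
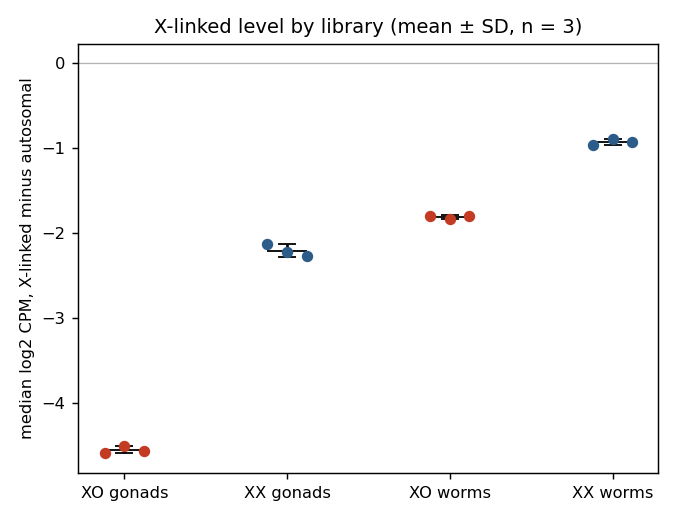
Median log2 CPM over X-linked genes less the median over autosomal genes in each library (points), with the mean and SD of the 3 libraries of a group (lines). XO gonads sit near -4.55 and XX gonads near -2.20, while XO worms sit near -1.81 and XX worms near -0.92.

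How an X-linked gene behaved went with its mean level in gonads relative to whole worms. Genes were binned by that level, averaged over both karyotypes. A low level in XO gonads alone also lowers this average, so the bins are not independent of the interaction. T10B10.4, for instance, had means of 14.8 CPM in XX gonads and 15.6 CPM in XX worms. Its means were 0.435 CPM in XO gonads and 17.6 CPM in XO worms. Among the 106 X-linked genes with higher levels in gonads, the median log2 ratio of XO over XX was -2.62 in gonads and -2.30 in whole worms, and 12 were lower in the interaction. Among the 469 up to 4-fold lower in gonads, the medians were -3.29 in gonads and -1.14 in whole worms, and 324 were lower in the interaction. Among the 322 that were 4- to 16-fold lower in gonads, the medians were -3.01 in gonads and -0.01 in whole worms, and 258 were lower in the interaction. In that bin the median X-linked gene was level between XO and XX bodies and several-fold lower in XO than in XX gonads. The 192 X-linked genes over 16-fold lower in gonads did not share this: their median ratio was 0.25 in gonads and 0.38 in whole worms, with 49 higher and 58 lower in the interaction.

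Autosomal genes were taken over the same bins. Of the 4981 with higher levels in gonads, 83 were lower and 33 higher, and the median interaction was 0.06. Of the 1925 up to 4-fold lower in gonads, 390 were lower and 49 higher, with a median of -0.21. Of the 763 that were 4- to 16-fold lower in gonads, 326 were lower and 29 higher, with medians of -0.29 in gonads and 0.59 in whole worms. Of the 598 over 16-fold lower in gonads, 106 were lower and 134 higher. Over the 4 bins, the share of autosomal genes lower in the interaction was 1.67% with higher levels in gonads, 20.3% up to 4-fold lower, 42.7% at 4- to 16-fold lower and 17.7% over 16-fold lower. The matching shares of X-linked genes were 11.3%, 69.1%, 80.1% and 30.2%, so both were greatest in the bin 4- to 16-fold lower and X-linked shares were above autosomal ones in every bin.

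**Figure D3:**
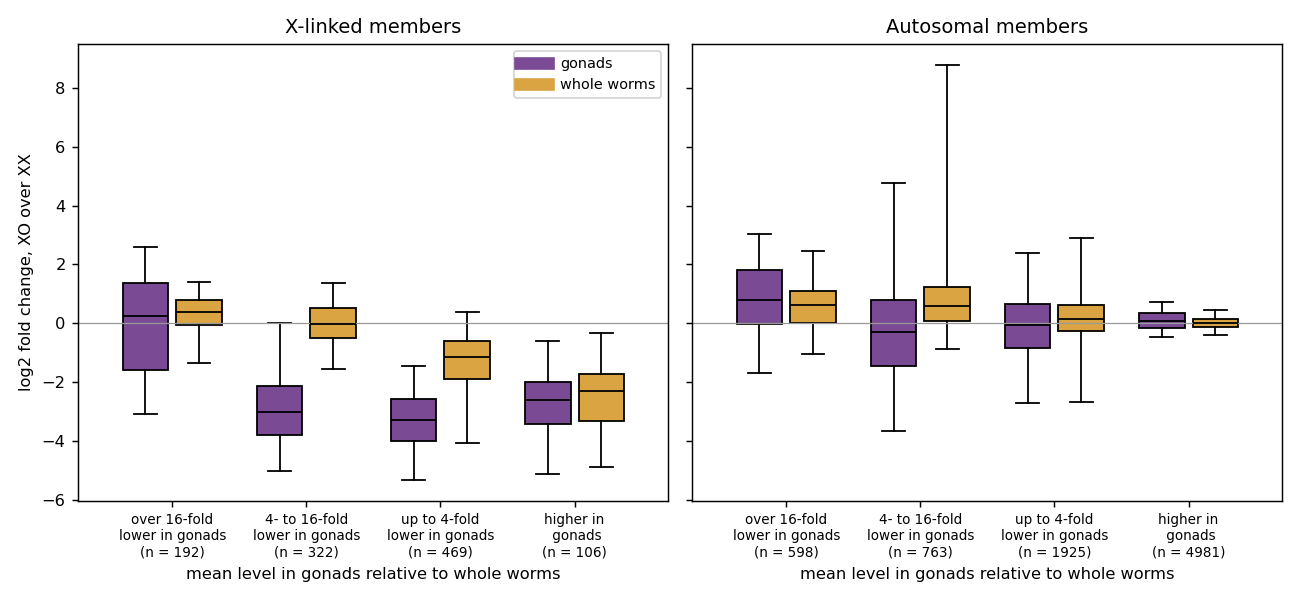
Log2 fold change of XO over XX in gonads and in whole worms for X-linked genes (left) and autosomal genes (right), binned by mean gonad level relative to whole worms. Boxes span the quartiles with the median as a line, and whiskers run to the 5th and 95th percentiles. For X-linked genes the gonad medians lie between -2.62 and -3.29 in the last 3 bins, while the worm medians fall over those bins, -0.01, -1.14 and -2.30.

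The 1871 called genes were sorted by the 2 ratios behind the interaction. The largest pattern, 574 genes, was lower in XO gonads with no call in whole worms, and 246 of them were X-linked. Next were 381 genes lower in XO in both tissues, of which 303 were X-linked. A further 317 were lower in XO gonads and higher in XO worms, and 264 were higher in XO worms alone. Smaller patterns were 121 genes higher in XO gonads alone, 97 higher in XO in both tissues, 61 lower in XO worms alone, 36 higher in XO gonads and lower in XO worms, and 20 with neither ratio called. A ratio not called in a tissue was not shown to be absent there. The 2 opposite patterns made up 2.87% (lower in gonads, higher in worms) and 0.390% (the reverse) of all genes tested. No such share is given for the other patterns, so their counts stand without a background. Leaving out XX gonad replicate 2 moved the opposite patterns together to 216 genes, the genes higher in XO worms alone to 174 and those higher in both tissues to 50. Leaving out XX gonad replicate 1 moved those lower in XO worms alone to 124. Leaving out XO worm replicate 2 moved those to 36, the genes higher in XO gonads and lower in XO worms to 23 and those higher in both tissues to 59. Genes higher in both tissues also numbered 63 without XO worm replicate 1, 64 without XO worm replicate 3 and 56 without XX worm replicate 3. Over all 12 fits with 1 library left out, genes lower in XO gonads alone numbered 501 to 630, those lower in both 303 to 522, those higher in both 50 to 118 and those lower in XO worms alone 36 to 124. With the 2 ratios called from each tissue fitted alone, 379 genes were lower in XO gonads alone, 484 lower in both and 290 opposite.

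Genes lower in XO gonads alone included genes whose level in XO and XX bodies was much the same. The X-linked T10B10.4 had 0.228, 0.613 and 0.463 CPM in XO gonads, against 17.6, 14.7 and 12.3 CPM in XX gonads. It had 17.3, 16.2 and 19.3 CPM in XO worms and 13.7, 14.7 and 18.3 CPM in XX worms. The gonad groups were far apart and the worm groups overlapped, for an interaction of -5.20 (SE 0.33, adjusted p = 3.58e-07). Autosomal pqn-48, which encodes a glutamine- and asparagine-rich protein, ran the same way at -5.22 (SE 0.34). Y32F6A.5 at -4.80 and X-linked C34D10.1 at -4.64 were also lower in XO gonads, but their worm groups did not overlap. Y32F6A.5 had 130, 131 and 133 CPM in XO worms against 103, 112 and 121 CPM in XX worms. C34D10.1 had 7.33, 6.99 and 8.71 CPM in XO worms against 11.5, 11.4 and 10.1 CPM in XX worms. Neither worm ratio was called (adjusted p = 0.461 and 0.0502). The muscle myosin gene myo-5, at -4.73 (SE 1.25), had 0.767 CPM in XX gonad replicate 1 against 10.7 and 18.9 CPM in the other XX gonads, and its call held, among the 12 fits with 1 library left out, in the 3 that left out an XX gonad library (adjusted p from 2.69e-07 to 0.0781 over the 12).

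Of the 381 genes lower in XO in both tissues, 362 were lower in the interaction, so that the gonad ratio was the more extreme, and 19 were higher. These 19 include all 6 vitellogenin genes, described below. C15H9.9 on the X chromosome had 0.609, 1.29 and 1.26 CPM in XO gonads, against 69.0, 58.6 and 53.2 CPM in XX gonads. In whole worms it had 36.3, 37.1 and 37.8 CPM in XO and 80.4, 72.5 and 76.5 CPM in XX. Its groups did not overlap in either tissue, and its interaction was -4.76 (SE 0.25, adjusted p = 1e-07). The autosomal genes pho-14, of an acid phosphatase family, and ctsa-1.1, which encodes a serine carboxypeptidase-like protein, belonged here with -5.18 and -4.55.

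Genes with opposite directions included best-20, of the bestrophin family of anion channels. It had 0.304, 0.736 and 0.595 CPM in XO gonads, against 16.3, 12.6 and 9.61 CPM in XX gonads. In whole worms it had 12.4, 14.9 and 12.9 CPM in XO and 7.91, 9.94 and 7.86 CPM in XX. XO was the lower group in gonads and the higher group in bodies, without overlap, and the interaction was -5.15 (SE 0.36, adjusted p = 8.5e-07). The others named for this pattern were T01E8.1 (-4.98), the X-linked neuroligin gene nlg-1 (-4.80), X-linked gei-15 (-4.76) and nac-3, of a sodium-coupled carboxylate transporter family (-4.62). In the reverse pattern, X-linked pept-1, which encodes the peptide transporter of the intestine, had 1.52, 0.613 and 1.06 CPM in XO gonads and 0.460, 0.316 and 0.255 CPM in XX gonads. It had 13.4, 12.9 and 16 CPM in XO worms, against 60.6, 44.1 and 52.8 CPM in XX worms, for an interaction of 3.46 (SE 0.44, adjusted p = 0.000115). Y16B4A.2 (3.58), T05E12.6 (3.17), irg-8 (3.14) and R193.2 (2.79) shared it. The gonad levels of all 5 were under 5 CPM in every library.

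Among genes higher in XO worms alone, those named were hardly present in dissected gonads. The C-type lectin gene clec-99 had 265, 271 and 290 CPM in XO worms, against 0.559, 0.0829 and 0.137 CPM in XX worms. In gonads it had 0.228, 0.736 and 2.38 CPM in XO and 1.46, 0.0631 and 0.0851 CPM in XX. The gonad groups overlapped, with most of the XX reads in replicate 1. Its interaction was -8.92 (SE 1.67, adjusted p = 0.00476), and the adjusted p was 0.329 without that library. Y51A2D.8 (-8.44), scl-15 (-8.34), clec-197 (-8.24) and F59B2.12 (-8.23) had the same profile, and each lost its call without XX gonad replicate 1, with adjusted p of 0.0773, 0.532, 0.215 and 0.332 in that order. F59B2.12 reached 1511, 1628 and 1520 CPM in XO worms, against 3.35, 0.166 and 0.547 CPM in XX worms. Some C-type lectins with under 10 counts in a group had interactions of this size too. clec-126 was at -8.51 (SE 0.53, adjusted p = 3.32e-07), with 4 counts in XX worms, and kept its call in all 12 fits with 1 library left out. clec-137, chosen after its values were seen, was at -9.21 (SE 2.01, adjusted p = 0.0102), with 6 counts in XX gonads and 4 in XX worms. Of the 97 genes higher in XO in both tissues, 61 were higher and 36 lower in the interaction, with a median of 1.23. Those named had the largest changes in size and were all among the 36. T02H6.9 had 8.45, 8.34 and 15.1 CPM in XO gonads, against 0.537, 0.758 and 0.340 CPM in XX gonads. In whole worms it had 121, 156 and 171 CPM in XO, against 0.958, 0.331 and 0.273 CPM in XX, and the interaction was -3.94 (SE 0.69). E02H9.9 (-3.81), Y48G9A.6 (-3.50) and F28C6.10 (-3.40) were of this kind. The C-type lectin gene clec-221, at -5.68, lost its call without XX gonad replicate 1 (adjusted p = 0.0759).

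The genes named as higher in XO gonads alone had low levels in gonads and higher levels in bodies. X-linked C12D12.1 had 4.79, 2.94 and 5.03 CPM in XO gonads, against 1.07, 0.505 and 0.511 CPM in XX gonads, while XO worms had 131, 139 and 157 CPM and XX worms 144, 165 and 144 CPM. The interaction was 2.68 (SE 0.34, adjusted p = 0.000115). dod-19 (3.15), the spondin gene spon-1 (2.89), pcp-3 (2.66) and the galectin gene lec-10 (2.64) were the others named. Genes lower in XO worms alone were led by pho-11, of the acid phosphatase family. It had 6.05, 3.54 and 5.62 CPM in XO worms, against 197, 183 and 156 CPM in XX worms, and it was under 1.5 CPM in every gonad library. Its interaction was 5.57 (SE 0.75, adjusted p = 0.000408). C23H5.8 (2.84), the folate transporter gene folt-2 (2.78), hacd-1 (2.69) and the aspartyl protease gene asp-13 (2.64) followed. The call of C23H5.8 was lost without XO gonad replicate 1 (adjusted p = 0.0539).

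Sets of genes with a known role were then followed across both tissues, by their counts and medians. Each count stands beside the background over all genes tested, 14.1% lower and 2.96% higher, and a share near it says nothing particular about a list. Contractile genes of muscle, many of which are also expressed in the contractile sheath of the hermaphrodite gonad, stood lower in the interaction in 14 of 21 members, with none higher. Their median was -1.94, against -0.04 over all 9498 genes, and the medians behind it were -1.16 in gonads and 0.63 in whole worms. The troponin I gene tni-3 had 1.98, 2.82 and 3.70 CPM in XO gonads, against 6.75, 6 and 6.38 CPM in XX gonads. In whole worms it had 316, 303 and 320 CPM in XO, against 35.5, 41.3 and 40.7 CPM in XX. Each tissue separated the karyotypes without overlap but in opposite directions, for an interaction of -4.16 (SE 0.23, adjusted p = 1.36e-07). The tropomyosin gene lev-11 also ran in opposite directions, at -2.63. The troponin T gene mup-2, on the X chromosome, and the pharyngeal troponin I gene tni-4 were lower in XO gonads, with interactions of -3.58 and -4.58. The myosin heavy chain genes unc-54 and myo-3 had -1.93 and -2.31. The 11 body wall muscle markers are all members of this list, so their sum is no separate observation. That sum was 150 to 217 CPM in XO gonads and 484 to 577 in XX gonads. In whole worms it was 16103 to 16991 CPM in XO and 7443 to 9666 in XX. The part of these markers in the result was not tested.

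Genes of the hermaphrodite somatic gonad, uterus and vulva were lower in the interaction in 7 of 13 members and higher in none. Their median was -0.85. The summed level of markers of the gonadal sheath and spermatheca was 930 to 1281 CPM in XO gonads and 414 to 939 in XX gonads, with a narrow overlap, against 969 to 1033 in XO worms and 879 to 991 in XX worms. That sum does not stand for each marker. In gonads, tbh-1, inx-8, lim-7 and ceh-18 were lower in XO, while inx-9 and fln-1 were not called. The part of these markers in the result was not tested. Among members not called was the filamin gene fln-1, with an interaction of 0.75 (SE 0.70). The homeobox gene cog-1 was not called either, at 1.31 (SE 0.64), although higher in XO gonads at a log2 ratio of 1.81 (adjusted p = 0.0236). X-linked tbh-1 encodes tyramine beta-hydroxylase, which makes octopamine, and is expressed in gonadal sheath cells and a pair of neurons. It had 0.457, 0.613 and 0.198 CPM in XO gonads, against 164, 170 and 176 CPM in XX gonads. It had 8.49, 5.87 and 6.11 CPM in XO worms and 141, 171 and 154 CPM in XX worms. XX gonads and XX worms held similar levels, XO worms held more than XO gonads, and the interaction was -4.09 (SE 0.31, adjusted p = 1.72e-06). The sheath regulators lim-7 and ceh-18, a LIM and a POU homeobox gene, had interactions of -1.79 and -3.58, and lin-11, which patterns the vulva and uterus, had -2.17. lim-7 and lin-11 were lower in XO in both tissues, whereas ceh-18 was lower in XO gonads with 13.1, 8.84 and 8.15 CPM in XO worms against 6.79, 7.37 and 8.48 CPM in XX worms. Among 14 innexins, which form gap junctions, 6 were lower and none higher, led by X-linked inx-5 at -3.17.

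Intestinal genes went the other way, with 8 of 11 members higher and 1 lower in the interaction and a median of 1.40. The medians were 1.34 in gonads and -0.23 in whole worms. The intestinal actin gene act-5 had 11.2, 7.36 and 10.1 CPM in XO gonads, against 5.14, 5.05 and 4.25 CPM in XX gonads. In whole worms it had 293, 295 and 350 CPM in XO and 371, 401 and 399 CPM in XX, and its interaction was 1.30 (SE 0.20, adjusted p = 0.000512). The intermediate filament gene ifb-2 (1.58), the esterase gene ges-1 (1.71) and the intestinal proton pump subunit vha-6 (1.40) did likewise. The exception was X-linked nuc-1, a DNase gene, at -1.25. These levels in gonads are a small part of those in whole worms, and the summed intestine markers, all 11 of them on the full list of 15, were 126 to 164 CPM in XO gonads and 36 to 65.2 in XX gonads. Their part in the result was not tested.

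Vitellogenins, the yolk proteins made in the XX intestine and taken up by oocytes, had the largest list median, 4.31, and all 6 were called higher. The sign comes from a smaller deficit in XO gonads than in XO bodies. vit-2 had 27.5, 19 and 8.27 CPM in XO gonads, against 155, 170 and 144 CPM in XX gonads. It had 501, 32 and 141 CPM in XO worms, against 31124, 42223 and 33464 CPM in XX worms. The log2 ratio was -3.10 in gonads and -7.31 in whole worms, and the interaction was 4.21 (SE 1.15, adjusted p = 0.0335). The XO worm replicates thus ranged from 32 to 501 CPM for vit-2. Among the 12 fits with 1 library left out its call held without XO gonad replicate 3, XO worm replicate 1 or XO worm replicate 2 and was lost in the other 9, with adjusted p from 0.00328 to 0.0814. Without XX gonad replicate 1 none of the 6 was called after adjustment, though all 6 had an unadjusted p below 0.05 and the list median was 4.19. The vitellogenins may share reads, since their sequences are alike. The yolk receptor gene rme-2 was not called, with an interaction of -0.01 (SE 0.14).

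Chaperones of the secretory pathway and the vacuolar proton pump are each encoded partly on the X chromosome and partly on autosomes. Of 12 chaperones and folding enzymes of the endoplasmic reticulum, 9 were lower and none higher, with a median of -0.83. The 4 X-linked members were the disulfide isomerase genes pdi-6 (-3.31) and pdi-2 (-3.03), the BiP gene hsp-3 (-2.67) and dnj-7 (-2.27). hsp-3 had 63.3, 83.5 and 76.7 CPM in XO gonads, against 494, 503 and 495 CPM in XX gonads. In whole worms it had 702, 656 and 668 CPM in XO and 640, 765 and 711 CPM in XX, where the groups overlapped. The autosomal BiP gene hsp-4 had an interaction of -0.52, with a log2 ratio of 0.09 in gonads and 0.60 in whole worms, and the autosomal calreticulin gene crt-1 had -0.96. Of 21 subunits of the vacuolar proton pump, 13 were lower and 2 higher, with a median of -0.42. X-linked vha-12, a subunit of the pump's catalytic sector, had 17.3, 19 and 19 CPM in XO gonads, against 187, 190 and 178 CPM in XX gonads, and 277, 300 and 329 CPM in XO worms against 355, 372 and 376 CPM in XX worms. Its interaction was -3.04 (SE 0.12, adjusted p = 1.91e-08). X-linked vha-20 and vha-15 had -2.36 and -2.26, whereas the 10 autosomal subunits called lower ran from -0.69 for vha-4 to -0.36 for vha-10. The 2 subunits called higher were vha-6 and vha-5, at 1.40 and 1.23.

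**Figure D4:**
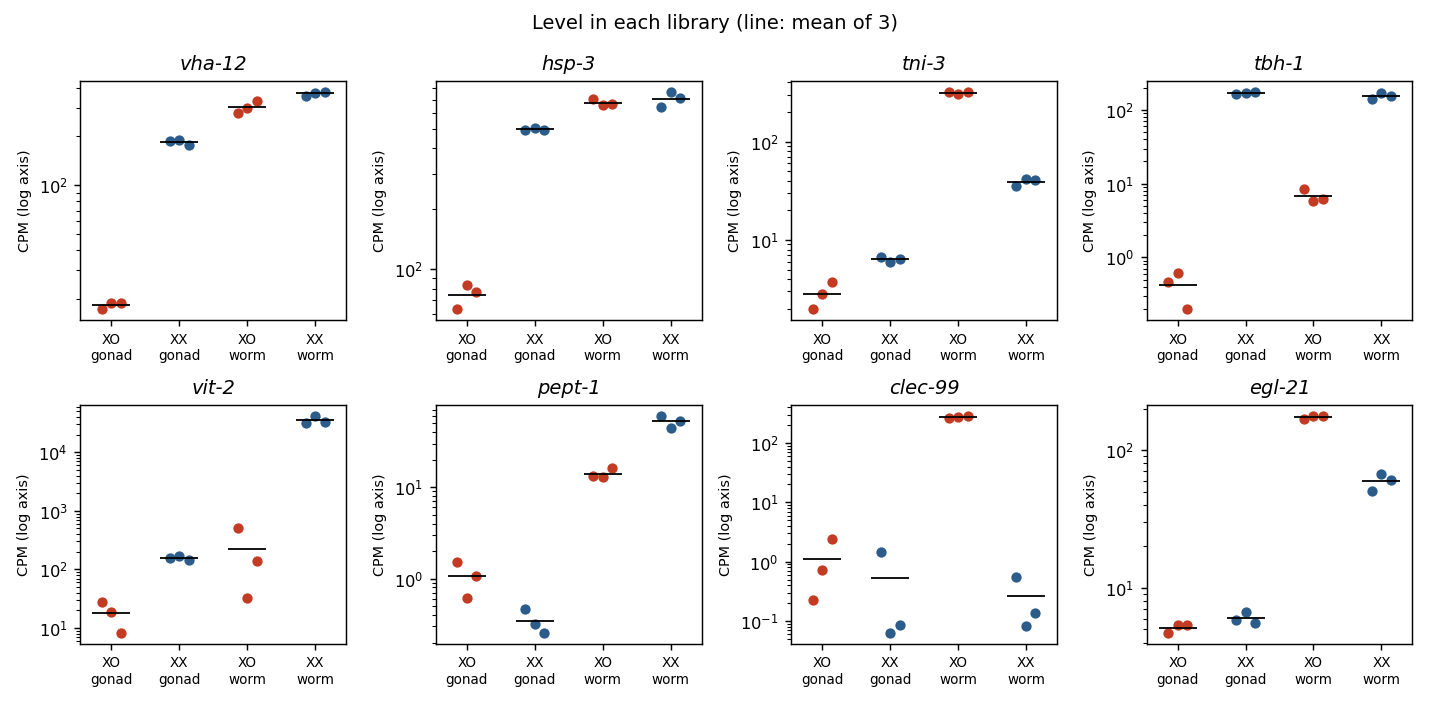
CPM of 8 genes in each of the 12 libraries, on log axes, with a line at the mean of 3. For vha-12 and hsp-3 the XO gonads lie below the other 3 groups. For tni-3 the karyotypes are reversed between tissues, for tbh-1 XO is lower in both, and clec-99 and egl-21 are high in XO worms.

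Neuronal genes were lower in the interaction in 6 of 14 members and higher in none, with a median of -0.83. Here the larger ratio was in the body, with list medians of 0.06 in gonads and 1.54 in whole worms. In gonads the list was split, with 5 of the 14 higher and 4 lower in XO, against 12.2% and 20.2% of all genes tested. egl-21, which encodes a carboxypeptidase that processes neuropeptides, had 4.72, 5.34 and 5.42 CPM in XO gonads and 5.83, 6.69 and 5.53 CPM in XX gonads. It had 168, 178 and 176 CPM in XO worms, against 50.4, 67.4 and 60.6 CPM in XX worms, for an interaction of -1.77 (SE 0.17, adjusted p = 1.21e-05). The X-linked gene unc-18, for a syntaxin-binding protein, was different. It had 1.45, 2.09 and 1.79 CPM in XO gonads, against 22.2, 28.5 and 27.2 CPM in XX gonads, and overlapping levels in XO and XX worms, with an interaction of -3.81. Among 20 neuropeptide genes, 6 were lower and 2 higher, with nlp-29 (2.91) and nlp-31 (2.52) the higher ones. Summed neuronal markers were 156 to 176 CPM in XO gonads and 193 to 243 in XX gonads, against 884 to 907 in XO worms and 364 to 401 in XX worms. Most of the gonad sums came from snb-1, with means of 134 CPM in XO gonads and 167 CPM in XX gonads. The part of these markers in the result was not tested.

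Of 77 nuclear hormone receptors, a family of ligand-regulated transcription factors that is large in worms, 39 were lower and 1 higher, with a median of -1.13. Of the 12 X-linked members, 11 were lower, and 28 autosomal members were lower as well. X-linked nhr-40 ran in opposite directions. It had 0.457, 0.675 and 0.926 CPM in XO gonads, against 5.06, 9.41 and 9.19 CPM in XX gonads, and 20, 20.2 and 19.5 CPM in XO worms against 10.7, 11.5 and 9.84 CPM in XX worms. Its interaction was -4.39 (SE 0.36, adjusted p = 2.87e-06). Autosomal nhr-97 did the same at -2.23.

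Male somatic genes were lower in 3 of 7 members, the Hox gene egl-5 (-3.92), swm-1 (-3.77), whose product restrains sperm activation, and mab-3 (-0.98). mab-3, a DM-domain regulator of male development, was higher in XO in both tissues, at 21.5, 20 and 23.7 CPM in XO gonads against 1.15, 0.821 and 0.851 CPM in XX gonads. Its call held without XO gonad replicate 3, XO worm replicate 3 or XX worm replicate 2 and was lost in the other 9 fits with 1 library left out, with adjusted p from 0.0144 to 0.137. Of 41 C-type lectins, 10 were lower and 5 higher with a median of -0.10. Without XX gonad replicate 1, 6 were lower and 9 higher, and the median was 0.04. Of 51 cuticle collagens, 4 were lower (7.84%) and 3 higher (5.88%), with 5 and 12 without that library. Their median was 0.67, and in gonads alone 16 were higher and 3 lower in XO. Summed cuticle and hypodermis markers were 198 to 220 CPM in XO gonads and 64.7 to 141 in XX gonads, against 8966 to 11162 in XO worms and 8944 to 11527 in XX worms. Of these 8 markers, rol-6 and bli-1 were at 0 in gonads of both karyotypes and dpy-13 in XX gonads. Their part in the result was not tested. Of 20 transthyretin-like genes, 4 were lower (20%) and 2 higher (10%), and of 7 trypsin-like proteases try-11 was lower at -6.57. That call was lost without XX gonad replicate 1 (adjusted p = 0.467).

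**Figure D5:**
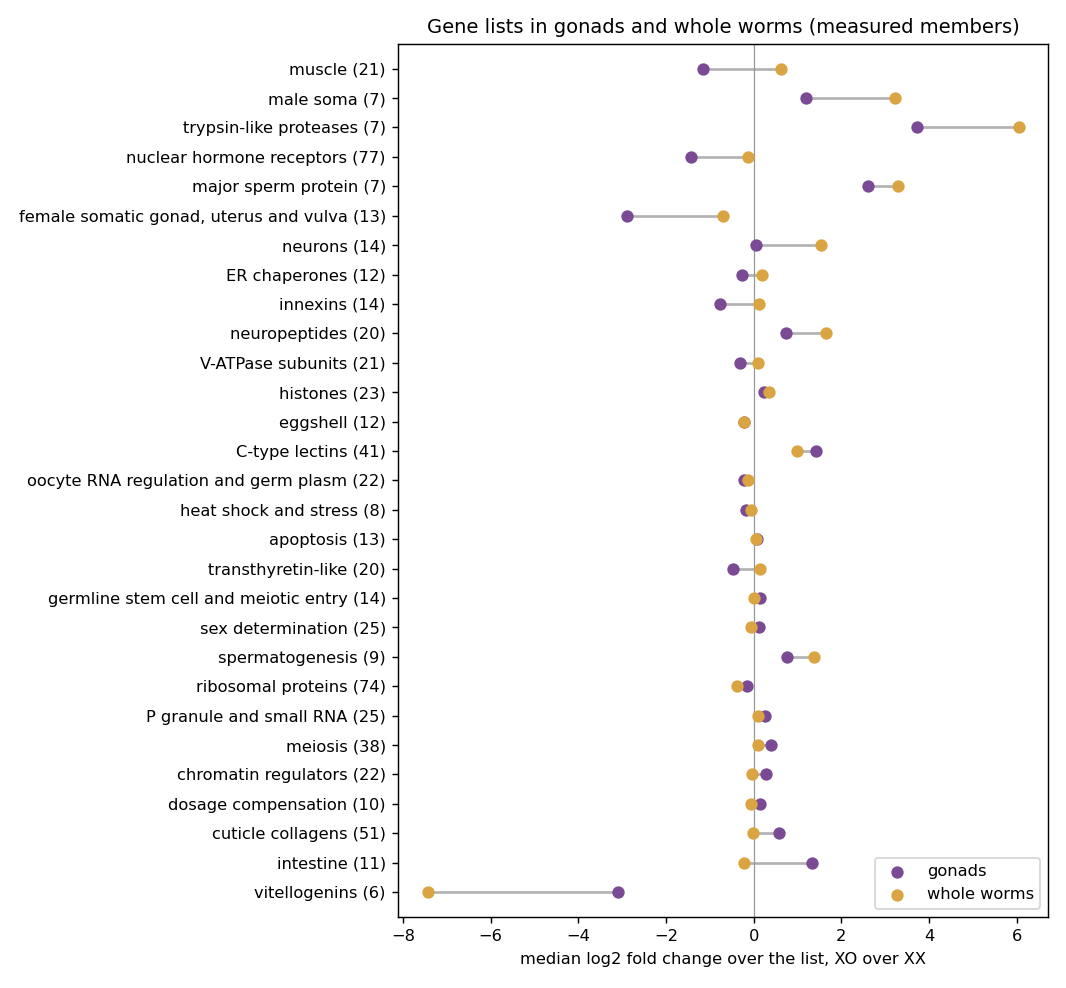
Median log2 fold change of XO over XX in gonads and in whole worms for each gene list with 5 or more measured genes (number in brackets), ordered from the lowest median interaction at the top to the highest at the bottom. Muscle, male and female somatic lists have their gonad point to the left of the worm point, intestine and vitellogenin lists to the right, and the meiotic, P granule and oocyte lists have both points near 0.

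Germline lists showed few interactions that were called. None of 38 meiotic genes, 25 P granule and small RNA genes, 22 oocyte RNA regulation and germ plasm genes, 13 apoptosis genes or 10 dosage compensation genes was called by edgeR. At an unadjusted p below 0.05 there were 1 meiotic gene and 1 P granule gene higher, and 3 apoptosis genes and 1 dosage compensation gene lower. DESeq2 called none of these genes, while limma voom called 2 meiotic and 1 P granule gene higher and 2 apoptosis genes and 1 dosage compensation gene lower. Without XX gonad replicate 1, edgeR called 2 meiotic genes higher and 1 oocyte gene lower. At an unadjusted p below 0.05 in that fit, 6 meiotic genes, 1 P granule gene and 1 oocyte gene were higher. Lower were 1 oocyte gene, 2 apoptosis genes and 1 dosage compensation gene. With all libraries the SE differed widely among genes, at 1.43 for the meiotic gene rad-50 and 0.0988 for the oocyte gene mex-6. A gene not called was therefore not shown to be unchanged. Medians of these lists and of the chromatin regulators lay between -0.08 and 0.33. The 2 highest, 0.33 for dosage compensation genes and 0.32 for chromatin regulators, were 0.01 and 0.09 without XX gonad replicate 1. Of 22 chromatin regulators, X-linked hpl-1, which encodes a heterochromatin protein of the HP1 family, was the gene called. It had 0.304, 0.184 and 0.132 CPM in XO gonads, against 7.74, 7.14 and 6.38 CPM in XX gonads, and 1.63, 2.41 and 2.74 CPM in XO worms against 7.43, 4.72 and 6.84 CPM in XX worms, for an interaction of -3.62 (SE 0.45, adjusted p = 9.59e-05). Of 12 eggshell genes, perm-2 and perm-4, whose products build the permeability barrier of the egg, were lower at -2.03 and -2.57. Both were also lower in XO worms, with log2 ratios of -4.59 and -4.47, and with perm-2 at 45.6, 37.3 and 44.3 CPM against 1054, 1030 and 968 CPM in XX worms.

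Of 25 sex determination genes, 2 were higher and 2 lower in the interaction, 8% each way. fog-1 had 626, 593 and 599 CPM in XO gonads, against 38.5, 47.1 and 43.6 CPM in XX gonads, and 301, 324 and 312 CPM in XO worms, against 30.4, 30 and 28.2 CPM in XX worms. All libraries carry the same allele, so this level checks no genotype. Its interaction of 0.41 (SE 0.12, adjusted p = 0.0316) held without XX gonad replicate 1, XX gonad replicate 3 or XX worm replicate 3 and was lost in the other 9 fits with 1 library left out, with adjusted p from 0.0194 to 0.148. fog-3, the partner of fog-1 in the sperm decision, had 0.73 (SE 0.19), a call lost without XX gonad replicate 2, XO worm replicate 2 or XX worm replicate 3, where the adjusted p reached 0.0648. X-linked fox-1, an element that signals X number, had -1.63, with log2 ratios of -4.23 in gonads and -2.60 in whole worms, and the calpain gene tra-3 had -0.57, a call lost without XX gonad replicate 2, XO worm replicate 2 or XX worm replicate 2 (adjusted p up to 0.145). her-1, which sets male fate, was not called at -0.71 (SE 0.32), nor was tra-1, the gene at the end of the pathway, at -0.63 (SE 0.20, adjusted p = 0.0532), with log2 ratios of 0.63 in gonads and 1.26 in whole worms. Also not called were xol-1 (-0.25, SE 0.76), tra-2 (0.31, SE 0.36) and fem-3 (-0.10, SE 0.17). The X-linked dosage compensation regulators sdc-1 (0.30, SE 0.42) and sdc-2 (-1.26, SE 1.26) were not called either, and both varied widely among XX gonads. sdc-1 had 18.6 CPM in XX gonad replicate 1 and 43.1 and 47.1 CPM in the others.

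Sperm genes gave 1 call. Of 9 spermatogenesis genes, spe-15, a myosin VI gene, was lower at -0.61, a call lost in 7 of the 12 fits with 1 library left out (adjusted p from 0.0135 to 0.187). None of 7 major sperm protein genes was called by edgeR, DESeq2 or limma voom, nor at an unadjusted p below 0.05. Their levels were low, as for msp-76 at 0.304, 1.53 and 0.397 CPM in XO gonads, against 0.0767, 0.126 and 0 CPM in XX gonads, and near-identical copies may share reads. Of 74 ribosomal protein genes, X-linked rpl-11.2 was the member called, at -1.77. Without XX gonad replicate 1, 11 members were higher and 1 lower, and limma voom, which weights libraries, called 39 higher and 1 lower. Of 23 histone genes, 3 were lower (13%) and 1 higher (4.35%), shares close to the background. X-linked members were the histone H3.3 gene his-71 at -2.53 and the linker histone gene his-24 at 1.04. Of 8 heat shock and stress genes, gst-4 was lower at -1.51, a call lost in 6 of the 12 fits (adjusted p from 0.0152 to 0.0799). Neither of the 2 coelomocyte genes was called by edgeR or DESeq2, and 1 was higher at an unadjusted p below 0.05 and by limma voom.

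The median SE of the interaction was 0.169 over the 5293 genes with 1000 or more counts in each tissue and 0.559 over the 1288 genes whose smaller tissue sum was 40 to 99. Genes just inside the count minimum, whose smaller tissue sum was 30 to 39, numbered 499, and gonads were the smaller sum in 438. Their median interaction was -0.36 with a median SE of 0.715. The 700 genes just outside, at 20 to 29, had a median of -0.34 and a median SE of 0.775 over the 594 tested.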

How the data were processed

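Polyadenylated RNA was sequenced from 12 libraries, whose group and replicate number came from their titles. The labels do not say whether replicates were separate cultures, so p-values measure only sample-to-sample spread, possibly technical. The authors deposited a table of raw gene counts, not normalized, for every library. Per the submitters' processing notes, the tools included TopHat2 2.0.12, HTSeq, SAMtools 1.2, Cufflinks 2.2.0 and CASAVA 1.8. Genome build, annotation release and strand setting of the counting are not given in the sources used here. Reads of overlapping or antisense genes may therefore be mixed. Summary lines that name no gene were left out. Reads with several genomic places were 7.15% ± 1.43 of XO gonad, 7.21% ± 1.96 of XX gonad, 13.5% ± 0.719 of XO worm and 19.3% ± 1.48 of XX worm reads (SD, n = 3), and they were not counted, so near-identical copies may be undercounted. Chromosomes and symbols came from the WBcel235 annotation.

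A single edgeR 4.0.16 model (R 4.3.3, TMM scaling, robust quasi-likelihood, 2-sided, Benjamini-Hochberg adjusted p below 0.05 over 12552 genes with 60 or more counts over 12 libraries) gave the interaction and both ratios, each with its standard error (SE). All 4 groups share its estimate of spread. The common biological coefficient of variation was 0.195 in this model, against 0.275 with gonads fitted alone and 0.0847 with whole worms fitted alone. Without XX gonad replicate 1 it was 0.102 in the model. The shared estimate can therefore understate the spread in gonads and overstate it in whole worms. CPM are counts scaled by library size and TMM. Medians over genes used log2 CPM with 0.5 added, and the gonad to worm bins log2 CPM with 0.1 added. Alternatives used DESeq2 1.42.0, limma 3.58.1 (voom with library weights), other scalings, filters and count minimums, a replicate block and each library left out. On simulated counts with a known interaction, the model was checked before use. All simulated libraries had the same spread and none stood apart, so the check did not cover a library like XX gonad replicate 1.

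The comparison, its gene lists (30, of which fer-14 and plg-1 could not be matched) and its tests were chosen with earlier results of these data known. Named genes were, within each pattern, the 5 largest interactions among called genes with a 2-fold interaction, 10 counts in every group and 10 CPM in a group, up to 4 genes of a list by adjusted p, and a short set that was always reported. Other genes named are members of these lists.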

Additional observations from a re-analysis of the deposited data

Results flagged for a closer look

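Each called gene is a gene whose difference between XO and XX differed between gonads and whole worms by a test of that difference, the interaction, with 303 genes higher and 1568 lower. Among the genes named by rule, 25 also ran in opposite directions in the 2 tissues. Lower in XO gonads and higher in XO worms were best-20, with a log2 interaction of -5.15, T01E8.1 at -4.98, nlg-1 at -4.80, gei-15 at -4.76 and nac-3 at -4.62. From the lists, clec-147 at -5.05, nhr-40 at -4.39, tni-3 at -4.16, swm-1 at -3.77, ttr-5 at -3.35, pdi-6 at -3.31, ttr-47 at -3.20 and lev-11 at -2.63 did the same. So did his-71 at -2.53, nhr-97 at -2.23, inx-12 at -1.61, flp-10 at -1.59, inx-13 at -1.25 and snb-1 at -0.81. Higher in XO gonads and lower in XO worms were Y16B4A.2 at 3.58, pept-1 at 3.46, T05E12.6 at 3.17, irg-8 at 3.14, nlp-29 at 2.91 and R193.2 at 2.79. Some of these sizes rest on few reads, with 3 summed counts for clec-147 and 6 for swm-1 in XO gonads. For nlp-29 there were 7 summed counts in XX gonads. The interaction of all 25 kept its sign and its call in each of the 12 fits with 1 library left out. That holds for the interaction alone, and the opposite pattern also needs both ratios called. Over all members, 291 of the 317 genes lower in XO gonads and higher in XO worms kept that pattern without XX gonad replicate 1. Of the 36 genes with the reverse pattern, 22 kept it. Groups held 3 libraries, and the gap criterion used for single outlying samples starts at 4, so it was not applied.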

How the results depend on the processing

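No interaction called in the reported fit changed sign under any alternative that tested it, and 1290 of the 1871 (68.9%) passed in all 12 fits with 1 library left out. DESeq2's size factors and TMM from autosomal genes gave 1784 and 1878 calls and moved the median interaction by -0.01 and 0.00, and no list median over 0.1 in size changed sign. Larger shifts came from limma voom with library weights, which gave XX gonad replicate 1 a weight of 0.0885. It called 721 interactions higher, 1972 genes higher in XO gonads, 2630 higher in XO worms and 536 opposite. Without a filter on counts, 828 genes were higher in XO gonads, 1161 higher in XO worms and 232 opposite. With a count minimum of 100 per tissue, 1035 genes were higher in XO worms, and with 10 the X-linked minus autosomal median interaction was -1.76. Each tissue fitted alone gave 682 genes higher in XO gonads and 2607 lower in XO worms.

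With 1 library left out, interactions higher ranged from 223 to 443 and lower from 1277 to 1764. Genes higher in XO gonads ranged from 945 to 1618 and lower from 1974 to 2466. Genes higher in XO worms ranged from 1221 to 2358 and lower from 1092 to 1861. Opposite genes ranged from 216 to 435. The X-linked minus autosomal median interaction ranged from -1.98 to -1.78, and the same from levels per library from -1.49 to -1.42. The cause of these shifts was not tested.

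Replicate numbers did not pair the samples: same-numbered libraries had correlations of -0.273 to 0.0616 in their deviations, with 0 of 18 over 0.1. With a replicate block, 1686 genes were called, 1667 of them as in the reported fit, and with a replicate block within tissue 1560 and 1517. Low gonad counts limit what can be seen: the median SE was 0.715 for genes whose smaller tissue sum was 30 to 39, against 0.169 for 1000 or more.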
